A study of Mus musculus with 12 samples.

Results

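The mitochondrial ribosomal protein genes, with symbols that begin with Mrpl or Mrps and a number, were examined for binding of RNA polymerase II (Pol II) in epithelium of the mouse duodenum. The genes were chosen by symbol alone, among genes listed in both of the authors' deposited tables of comparisons. This gave 42 of 6429 genes, 26 for proteins named after the large ribosomal subunit (Mrpl) and 16 named after the small subunit (Mrps). A further 36 genes with such symbols, for example Mrpl3 and Mrps5, had counting windows in the deposited files and no row in either table, and they were not analysed here. The 42 genes are therefore those that passed a filter of the authors that is not given in the sources used here.

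The assay was ChIP-seq, in which chromatin bound by Pol II is precipitated with an antibody and sequenced. By the labels, 3 libraries are of villus and 3 of crypt, both from wild-type (WT) mice, and 3 are of villus from Hnf4{alpha}{gamma} double knockout (DKO) mice, with 1 input library beside each group. Adult DKO mice received tamoxifen at 50 mg/kg on each of 2 days and were killed 1 day after the last injection, and WT mice received oil vehicle without tamoxifen. Epithelium was released with EDTA for 25 min from DKO tissue and for 35 min from WT tissue, so genotype, tamoxifen and EDTA time cannot be told apart. The labels do not say what drives the deletion, or whether libraries of a group came from separate mice, so p-values measure the spread between libraries, which may be technical. Villi hold differentiated cells, mostly absorptive enterocytes, and crypts hold stem and dividing cells. In bulk samples like these, a lower share of a cell type and less Pol II per cell cannot be told apart.

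Mitochondria have their own ribosome, which translates the few proteins encoded by mitochondrial DNA, all of them subunits of the oxidative phosphorylation complexes. Its RNAs are transcribed in the mitochondrion, whereas all of its proteins come from nuclear genes transcribed by Pol II and are imported after synthesis in the cytosol. The promoters of such nuclear genes are known for sites of the ETS factor GABP, of NRF1 and of YY1. The small subunit reads the messenger RNA and the large subunit joins the amino acids.

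The upstream sequences of 8 of these genes are shown, chosen by their fold changes and motifs. Mrpl9, which also holds an NRF1 motif upstream, was not called and is not shown. Mrps2 and Mrps14 had the largest differences between villus and crypt, Mrpl10, Mrpl17 and Mrpl33 are crypt-high genes with an NRF1 motif, Mrps31 differed between labelled-DKO villus and crypt, and Mrpl16 and Mrpl28 were higher in WT villus. Each line gives the 150 bases before the annotated start, from RefSeq (GRCm38.p6), written 5′ to 3′ on the strand of the gene. Capitals mark matches to the ETS core CCGGAA, the NRF1 core GCGCATGC or the YY1 core AAGATGGC on either strand, where they lie wholly within the stretch. A further ETS match of Mrpl17, at position -237 from the start, lies outside it. A second ETS match of Mrpl33, at position -3, runs past its end and is not marked. The stretches lie at chr2:28467916-28468065 (plus strand) for Mrps2, chr1:160195065-160195214 (plus strand) for Mrps14, chr11:97041432-97041581 (plus strand) for Mrpl10, chr7:105811088-105811237 (minus strand) for Mrpl17, chr5:31613801-31613950 (plus strand) for Mrpl33, chr8:22411190-22411339 (plus strand) for Mrps31, chr19:11770265-11770414 (plus strand) for Mrpl16 and chr17:26123353-26123502 (plus strand) for Mrpl28.
Mrps2: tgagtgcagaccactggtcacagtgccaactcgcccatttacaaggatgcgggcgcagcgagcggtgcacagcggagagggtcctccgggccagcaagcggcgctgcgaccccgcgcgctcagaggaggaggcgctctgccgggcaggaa
Mrps14: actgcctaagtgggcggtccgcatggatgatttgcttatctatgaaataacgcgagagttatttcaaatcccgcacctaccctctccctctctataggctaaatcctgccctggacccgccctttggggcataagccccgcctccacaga
Mrpl10: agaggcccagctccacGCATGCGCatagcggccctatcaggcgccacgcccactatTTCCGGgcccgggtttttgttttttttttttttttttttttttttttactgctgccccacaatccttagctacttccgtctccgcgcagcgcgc
Mrpl17: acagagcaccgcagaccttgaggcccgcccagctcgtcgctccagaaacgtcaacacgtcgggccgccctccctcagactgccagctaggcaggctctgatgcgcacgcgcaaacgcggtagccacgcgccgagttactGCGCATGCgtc
Mrpl33: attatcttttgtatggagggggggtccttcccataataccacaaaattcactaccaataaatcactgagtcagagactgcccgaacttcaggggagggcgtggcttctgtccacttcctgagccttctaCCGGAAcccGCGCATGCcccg
Mrps31: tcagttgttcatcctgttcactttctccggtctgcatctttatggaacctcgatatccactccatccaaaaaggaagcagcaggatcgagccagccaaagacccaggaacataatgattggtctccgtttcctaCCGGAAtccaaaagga
Mrpl16: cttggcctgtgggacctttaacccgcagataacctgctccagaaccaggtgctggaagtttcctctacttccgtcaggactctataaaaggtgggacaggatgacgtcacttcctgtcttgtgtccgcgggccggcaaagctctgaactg
Mrpl28: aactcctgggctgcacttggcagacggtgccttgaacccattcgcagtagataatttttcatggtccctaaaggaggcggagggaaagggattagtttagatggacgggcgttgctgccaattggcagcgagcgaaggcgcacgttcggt

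Motifs were counted from 250 bases before to 50 bases after the start, on both strands, in the 38 genes that matched an entry of the RefSeq promoter table by symbol. Mrpl4, Mrpl15, Mrpl38 and Mrpl54 had no entry. The ETS core CCGGAA was present in 22 of the 38 genes (57.9%), against 14.9% of all 32851 promoters in the table and 32.6% of the 5161 genes of the deposited comparisons that had an entry. Of its 36 matches in Mrp promoters, 33 (91.7%) began between 100 bases before and 50 bases after the start, against 67.5% of the 6438 matches in all promoters. Matches were counted per promoter entry, so a site of a gene with several annotated starts, such as Mrpl2, can count more than once. The NRF1 core GCGCATGC was present in 5 Mrp genes (13.2%), against 2.71% of all promoters and 5.99% of the genes in the comparisons. Mrpl9 and Mrps18b hold it as well as Mrpl10, Mrpl17 and Mrpl33. The YY1 core AAGATGGC was present in 4 genes (10.5%), Mrpl49, Mrps7, Mrps12 and Mrps24, against 2.75% of all promoters and 5.35% of the genes in the comparisons. The GC box GGGCGG was present in 50% of the Mrp promoters, between the 35.7% of all promoters and the 67.8% of the genes in the comparisons. The HNF4 motif CAAAGTCCA was present in 0 of 38, against 0.475% and 0.814%. Only this exact string was searched. At shares this low, a count of 0 among 38 genes says little about HNF4 sites in the family. The E-box CACGTG was present in 5.26% of the Mrp promoters, 7.15% of all promoters and 11.6% of the genes in the comparisons. The corresponding shares were 36.8%, 37.4% and 42.8% for the CCAAT box and 7.89%, 13.6% and 9.86% for the TATA box TATAAA. The ETS core ends in letters with which the YY1 core begins. Matches to different motifs shared bases in Mrpl17 and Mrps16, each time with a GC box. No test of these shares was made, and a match is no measurement of binding.

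All fold changes, standard errors and adjusted p-values for WT villus against crypt and against DKO villus are those of the authors' deposited tables, in the format of DESeq2 results. The mean signal of a gene is its mean normalised count over the libraries fitted, and it was identical in both tables. It ran from 43.7 to 189 over the 42 genes with a median of 78.1, and 36 of the 42 lay below the median of all genes, 144. Counts per library could not be matched to samples, so values per library, depth and overlap between libraries were not analysed here. In place of them, a level for each group was rebuilt from the mean signal and the 2 fold changes, taking the groups as equal in size. Standard errors follow ± and are on the log2 scale, and a gene was called at an adjusted p under 0.05. At the targeted genes Pol II was higher, not lower, in the villi that the labels call DKO. The authors' deposited table gave log2 fold changes of WT over DKO villus of -0.54 ± 0.14 (DESeq2 adjusted p 4.84e-04) for Hnf4a and -1.45 ± 0.22 (7.81e-10) for Hnf4g. These villi are called labelled-DKO villi here, which is no statement on whether HNF4 was lost. Pol II at a gene does not measure its protein, and loss of the protein was not tested.

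In villus against crypt, the Mrp genes lay mostly on the crypt side. The authors' deposited table listed 12 of the 42 genes (28.6%) as higher in crypt and 2 (4.76%) as higher in villus at the threshold, while 28 were not called. Among all 6429 genes 18.8% were called higher in crypt and 18.6% were called higher in villus. The median log2 fold change of WT villus over crypt was -0.29 over the Mrp genes and -0.04 over all genes, and 33 of the 42 values were below 0 (78.6%, against 54.6% of all genes). Genes with a mean signal in the same range as the Mrp genes, 3740 in number, were called higher in crypt in 18.4% of cases and higher in villus in 14.7%. Called genes differed by 1.28-fold to 1.89-fold. Over the 15 Mrp genes with a mean signal of at least 100 the median was -0.14, and without the shift of all genes, that is after centring, Mrpl57 and Mrps18b were no longer called.

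Small subunit genes held the largest differences. Mrps2, the counterpart of a bacterial small subunit protein, had rebuilt levels of 74.6 normalised counts in crypt, 39.5 in WT villus and 58.1 in labelled-DKO villus. The authors' deposited table gave its villus over crypt log2 fold change as -0.92 ± 0.22 with a DESeq2 adjusted p of 1.61e-04, a 1.89-fold lower signal in villus. Mrps14, a protein of the small subunit head, stood at 108 in crypt, 60.4 in WT villus and 114 in labelled-DKO villus, with -0.84 ± 0.14 (DESeq2 adjusted p 3.12e-08) in the authors' deposited table. Its standard error was smaller than that of Mrps2 at a higher mean signal, 94.3 against 57.4. The other called genes of the small subunit in the authors' deposited table were Mrps18b (-0.44 ± 0.17), Mrps31 (-0.38 ± 0.09), Mrps25 (-0.38 ± 0.08) and Mrps10 (-0.36 ± 0.13). In all, 6 of 16 small subunit genes were called higher in crypt and 0 higher in villus by the authors' DESeq2 test, with 7 at an unadjusted p under 0.05 in either direction. The share higher in crypt was 37.5%, against 18.8% of all genes.

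Among the 26 large subunit genes, 6 (23.1%) were called higher in crypt and 2 (7.69%) higher in villus. Of all genes, 18.8% and 18.6% were called in these directions, so the share higher in crypt is near that of all genes. Mrpl10, which anchors the stalk that recruits translation factors, stood at 81.4 in crypt and 54.0 in WT villus by the rebuilt levels, with -0.59 ± 0.17 (DESeq2 adjusted p 0.00171) in the authors' deposited table. Mrpl17 stood at 129 and 86.4, with -0.58 ± 0.14 (2.02e-04), and Mrpl24, a protein near the exit of the peptide tunnel, at 82.0 and 56.8, with -0.53 ± 0.16 (0.00361), in the same deposited table of the authors. Mrpl47 (-0.51 ± 0.10), Mrpl57 (-0.41 ± 0.17) and Mrpl33 (-0.37 ± 0.13) were the other genes of this subunit called higher in crypt there. The medians of the subunits were close, -0.29 for the large and -0.25 for the small subunit.

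Mrpl16 and Mrpl28 went the other way. Mrpl16, a large subunit protein close to the bound transfer RNAs, stood at 181 in WT villus, 124 in crypt and 154 in labelled-DKO villus, and its deposited log2 fold change of villus over crypt from the authors was 0.55 ± 0.10 (DESeq2 adjusted p 2.57e-07). Mrpl28 stood at 180 in WT villus, 130.3 in crypt and 149 in labelled-DKO villus, with 0.46 ± 0.16 (0.0136) in the authors' deposited table. Both had a high mean signal for this family, 153 each, behind only Mrpl12 (189), whose stalk protein also binds the mitochondrial RNA polymerase, and Mrps25 (154). Mrpl12 was not called, at 0.05 ± 0.21 in the authors' deposited table. Of the other genes not called, Mrps7 and Mrpl41 lay nearest the threshold, with adjusted p-values from DESeq2 of 0.0513 and 0.0619 in the authors' deposited table.

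**Figure D1:**
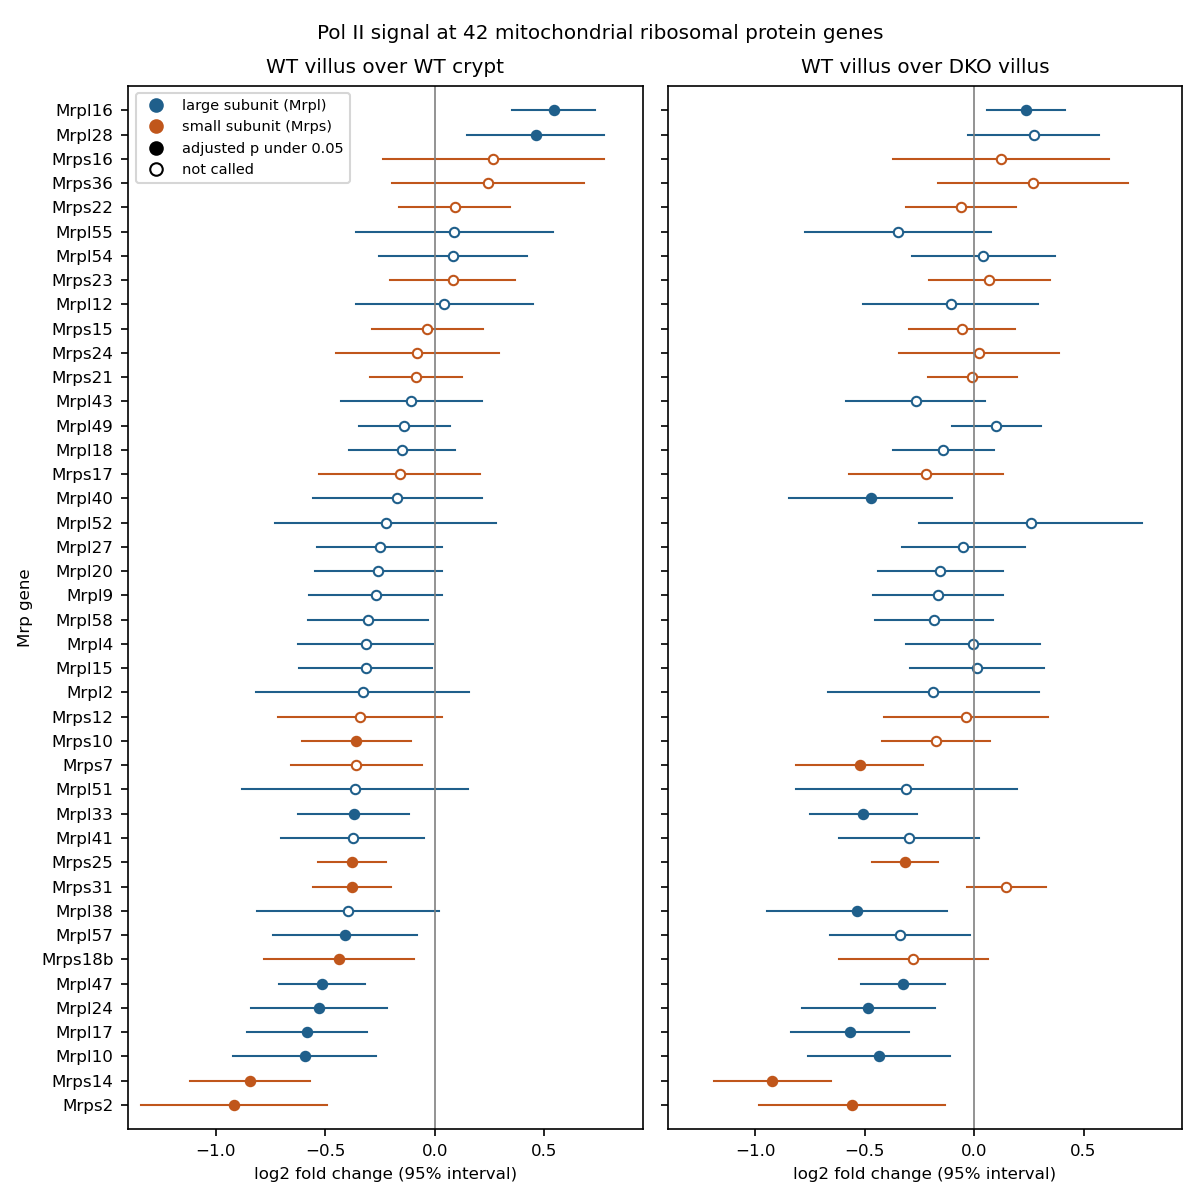
Log2 fold change of Pol II signal (x axis) for each of the 42 Mrp genes (y axis, ordered by the left panel), for WT villus over WT crypt (left) and WT villus over labelled-DKO villus (right), from the authors' deposited tables. Points are the fold changes, lines their 95% intervals from the standard errors, filled points have an adjusted p under 0.05, blue marks Mrpl and orange Mrps genes; 12 genes are called to the left of 0 and 2 to the right in the left panel, 11 and 1 in the right panel.

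Proteins within each subunit differ in ancestry. Genes with numbers up to 36 (Mrpl) or 21 (Mrps) are named after ribosomal proteins of bacteria, and most with higher numbers encode proteins added in mitochondria, although Mrpl47, Mrpl55 and Mrps24 have bacterial counterparts too. Of the 24 genes with the lower numbers 8 were called higher in crypt and 2 higher in villus in the authors' deposited table, with a median of -0.32. Of the 18 with higher numbers 4 were called higher in crypt and 0 higher in villus (6 of the 18 at an unadjusted p under 0.05 in DESeq2, in either direction), with a median of -0.20. The shares higher in crypt were 33.3% for lower and 22.2% for higher numbers, against 18.8% of all genes. No test of the difference between the classes was made. Mrps36, named as a small subunit protein and now known as a subunit of the 2-oxoglutarate dehydrogenase complex, was not called, at 0.25 ± 0.22 in the authors' deposited table. Mrpl58, a peptidyl-tRNA hydrolase that frees stalled ribosomes, had -0.30 ± 0.14 with an adjusted p of 0.0742 from DESeq2 in the authors' deposited table.

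The 25 genes called in neither comparison covered both subunits and a narrow range. Their log2 fold changes of villus over crypt in the authors' deposited table ran from -0.37 for Mrpl41 to 0.27 for Mrps16. Large subunit genes among them were Mrpl2, Mrpl4, Mrpl9, Mrpl12, Mrpl15, Mrpl18, Mrpl20, Mrpl27, Mrpl41, Mrpl43, Mrpl49, Mrpl51, Mrpl52, Mrpl54, Mrpl55 and Mrpl58. Those of the small subunit were Mrps12, Mrps15, Mrps16, Mrps17, Mrps21, Mrps22, Mrps23, Mrps24 and Mrps36. Some were measured with little precision. Mrpl51 stood at -0.36 ± 0.26 and Mrps12, whose protein takes part in decoding, at -0.34 ± 0.19 in the authors' deposited table, next to -0.36 ± 0.13 for Mrps10, the called crypt-high gene nearest 0. Others were measured more closely and lay near 0, such as Mrps21 (-0.08 ± 0.11), Mrpl49 (-0.14 ± 0.11), Mrps15 (-0.03 ± 0.13) and Mrps22 (0.09 ± 0.13) in the authors' deposited table. For 40 of all 42 genes the 95% interval lay within a log2 fold change of 1 on either side of 0.

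Between WT and labelled-DKO villus, the Mrp genes again lay mostly below 0, toward more Pol II in labelled-DKO villus. By the authors' deposited table labelled-DKO villus had the higher signal at 11 of 42 genes (26.2%), which is near the 29.5% of all genes, and WT villus at 1 gene (2.38%), against 22.4% of all genes. The corresponding shares for the genes in the same range of mean signal were 27.1% and 19.2%. The share higher in labelled-DKO villus is therefore no result about this family. The median was -0.17 over the Mrp genes and -0.08 over all genes. After centring on the median of all genes, the counts were 7 for labelled-DKO villus and 3 for WT villus, the median over the Mrp genes was -0.09, and Mrps2, Mrpl10, Mrpl38 and Mrpl40 were no longer called. The same centring turned the shares of all genes to 26.6% for WT villus and 22.1% for labelled-DKO villus. Called genes differed by 1.18-fold to 1.89-fold.

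Mrps14 had the largest difference here, with a log2 value of -0.92 ± 0.14 (DESeq2 adjusted p 1.11e-10) in the authors' deposited table, a 1.89-fold higher signal in labelled-DKO villus. Mrpl17 (-0.57 ± 0.14, DESeq2 adjusted p 1.57e-04), Mrps2 (-0.56 ± 0.22, 0.0222) and Mrpl38 (-0.54 ± 0.21, 0.0232) followed in the authors' deposited table. Mrps7, a protein at the messenger RNA exit of the small subunit, stood at 101 in labelled-DKO villus and 70.3 in WT villus by the rebuilt levels, with -0.52 ± 0.15 (DESeq2 adjusted p 0.00124) from the authors' deposited table. Mrpl33 stood at 118 and 83.1, with -0.51 ± 0.12 (1.86e-04) in the same deposited table of the authors. The remaining called genes there were Mrpl24 (-0.48 ± 0.15), Mrpl40 (-0.47 ± 0.19), Mrpl10 (-0.43 ± 0.16), Mrpl47 (-0.33 ± 0.10) and Mrps25 (-0.32 ± 0.08). By subunit, 7 of 26 large (26.9%) and 4 of 16 small subunit genes (25.0%) were called higher in labelled-DKO villus. Both shares lay below the 29.5% of all genes. Mrpl16 alone was called higher in WT villus, at 0.24 ± 0.09 (DESeq2 adjusted p 0.0188) in the authors' deposited table, and Mrpl28 was not called, at 0.27 ± 0.15 (0.123).

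The 2 deposited comparisons share the WT villus libraries, so a low value in those libraries enters both. Labelled-DKO villus was therefore set against crypt by subtracting one deposited value from the other. The standard error ignores the shared libraries, which makes it too large rather than too small. By a two-sided normal test adjusted over all 6429 genes, 1 of 42 Mrp genes was called higher in crypt (2.38%, against 7.19% of all genes) and 0 were called higher in labelled-DKO villus (against 6.41%). At an unadjusted p under 0.05 there were 2 genes in either direction. The gene called was Mrps31, with rebuilt levels of 178 in crypt, 137 in WT villus and 123 in labelled-DKO villus and a log2 fold change of labelled-DKO villus over crypt of -0.52 ± 0.13 (adjusted p 0.00102). Between WT and labelled-DKO villus Mrps31 was not called, at 0.15 ± 0.09 (DESeq2 adjusted p 0.173) in the authors' deposited table. With a standard error that takes the shared libraries into account by an assumed spread, Mrpl16 was also called, at 0.31 (adjusted p 0.00723) and higher in labelled-DKO villus, but 15.6% of all genes were then called in that direction and 14.4% toward crypt. The median over the Mrp genes was -0.06, against 0.00265 over all genes. For 40 of the 42 genes the 95% interval of this difference lay within a log2 fold change of 1 on either side, and the median standard error was 0.22, so differences of the size seen between WT villus and crypt could remain undetected here.

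**Figure D2:**
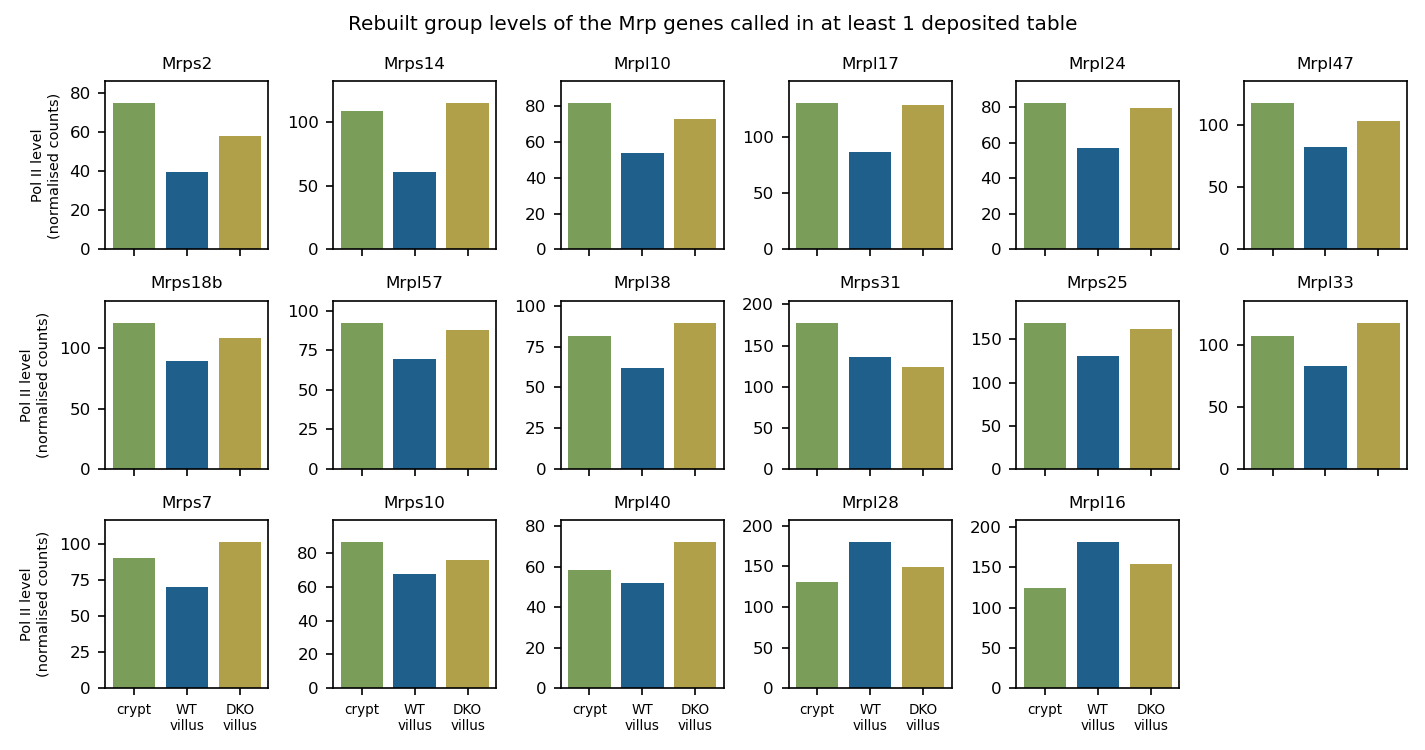
Rebuilt Pol II level in normalised counts (y axes, from 0) in WT crypt (green), WT villus (blue) and labelled-DKO villus (ochre) for the 17 Mrp genes called in at least 1 of the authors' deposited tables, 1 panel per gene. Bars are rebuilt from the mean signal and the 2 deposited fold changes and carry no error; in Mrps14 the WT villus bar is at 60.4 and the others at 108 and 114, and in Mrpl16 the WT villus bar, at 181, is the highest.

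**Figure D3:**
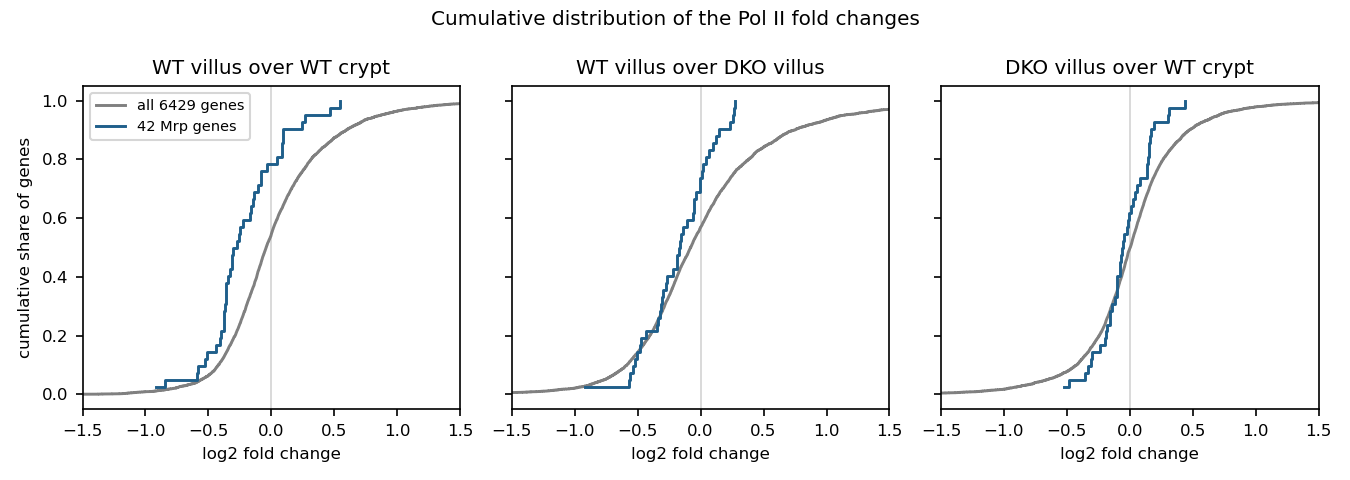
Cumulative share of genes (y axis) by log2 fold change (x axis, shown from -1.5 to 1.5) for the 42 Mrp genes (blue) and all 6429 genes (grey) in the 3 comparisons. The blue curve has its median at -0.29, -0.17 and -0.06 from left to right, where the grey one has -0.04, -0.08 and 0.00265; the Mrp curve ends at 0.55 in the left panel.

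Proliferation and enterocyte markers moved with these comparisons, and the other marker lists were less uniform. Of 13 proliferation markers 3 were in the tables (Pcna, Ccnd1 and Ccnd2), and the authors' deposited tables called all 3 higher in crypt and in labelled-DKO villus than in WT villus. Their summed rebuilt level was 459 in crypt, 270 in WT villus and 511 in labelled-DKO villus. Of 15 enterocyte markers 14 were in the tables, and all 14 were called higher in WT villus in both of the authors' deposited tables, with summed levels of 7633 in crypt, 19740 in WT villus and 5706 in labelled-DKO villus. Of 12 crypt stem and progenitor markers 3 were in the tables, with summed levels of 962, 760 and 925 in the same order. Against WT villus, 2 of these 3 were called higher in crypt and 1 higher in labelled-DKO villus. Secretory markers (6 of 10 in the tables) summed to 898, 1135 and 1235 in that order, and immune markers (3 of 10) to 227, 307 and 209.9. Secretory genes went both ways between villus and crypt, with 2 called higher in each. Of the immune genes only Cd74 was called, higher in WT villus in both comparisons. The 9 markers of mesenchyme and other cells were not among the genes of the tables, and no marker with a row was at 0. For these counts, 18.8% of all genes were called higher in crypt and 18.6% higher in WT villus. Against labelled-DKO villus, 29.5% were higher in labelled-DKO villus and 22.4% in WT villus. The part of cell composition in the Mrp values was not tested.

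Other genes of mitochondrial gene expression were read from lists chosen by function. Assembly and ribosomal RNA modification factors were mixed: of 27 listed genes 10 were in the tables, and the authors' deposited table called 2 higher in crypt and 1 higher in villus. These shares, 20% and 10%, stand beside 18.8% and 18.6% of all genes, so the share higher in crypt is near that of all genes. C1qbp, a matrix protein needed for mitochondrial translation, was higher in crypt, at -0.72 ± 0.15, and so was Dhx30, an RNA helicase of ribosome assembly, at -0.24 ± 0.07, in the authors' deposited table. Mrm1, a methyltransferase of the large ribosomal RNA, was higher in villus there, at 0.55 ± 0.18. Between WT and labelled-DKO villus the authors' deposited table called C1qbp (-0.44 ± 0.14) and Dhx30 (-0.48 ± 0.07) higher in labelled-DKO villus, and Mrm1 (0.94 ± 0.18) and Trub2 (0.31 ± 0.12) higher in WT villus. That is 20% of the 10 genes in each direction, against 29.5% of all genes for labelled-DKO villus and 22.4% for WT villus. Of 6 further ribosomal or ribosome-bound proteins with other names, Gadd45gip1 and Oxa1l were in the tables. The authors' deposited table had Gadd45gip1, a large subunit protein, at -0.44 ± 0.15 for villus over crypt, and Oxa1l, which inserts new proteins into the inner membrane, at 0.70 ± 0.08, both called.

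Translation factors and tRNA synthetases were covered thinly. For the counts below, all genes were called higher in crypt in 18.8% and higher in villus in 18.6% of cases. Between WT and labelled-DKO villus these shares were 29.5% for labelled-DKO villus and 22.4% for WT villus. Of 15 listed factors 5 were in the tables, and 2 were called higher in crypt in the authors' deposited table, Slirp (-0.51 ± 0.16), which stabilises mitochondrial messenger RNA, and the release factor Mtrf1l (-0.34 ± 0.12). Slirp (-0.73 ± 0.16) and the initiation factor Mtif3 (-0.31 ± 0.11) were called higher in labelled-DKO villus in the authors' deposited table. The elongation factor Tufm was called in neither of the authors' deposited tables, at -0.17 ± 0.25 and -0.06 ± 0.25. Of 20 genes for mitochondrial synthetases and their amidotransferase 4 were in the tables. Yars2 (-0.54 ± 0.15) and Gatc (-0.35 ± 0.09) were called higher in crypt and Iars2 (0.69 ± 0.15) higher in villus in the authors' deposited table. Against labelled-DKO villus the authors' deposited table gave -0.89 ± 0.14 for Yars2, -0.54 ± 0.09 for Gatc and 0.45 ± 0.15 for Iars2, all called.

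Genes for mitochondrial transcription, RNA processing, protein import and folding lay further toward crypt. Of 31 listed genes 17 were in the tables, and the authors' deposited table called 11 higher in crypt and 1, the polymerase subunit Polg2 (0.46 ± 0.18), higher in villus, with a median of -0.51. These shares were 64.7% and 5.88%, against 18.8% and 18.6% of all genes. The matrix chaperones Hspe1 (-1.03 ± 0.22) and Hspd1 (-1.01 ± 0.18) and the protease Lonp1 (-0.86 ± 0.14) had the largest differences in the authors' deposited table, and the transcription factor Tfam had -0.57 ± 0.12. Against labelled-DKO villus, 13 of the 17 were called higher in labelled-DKO and 0 higher in WT villus (14 at an unadjusted p under 0.05 in DESeq2, in either direction), with Hspd1 at -1.11 ± 0.18 in the authors' deposited table. The share higher in labelled-DKO villus was 76.5%, against 29.5% of all genes, while 22.4% of all genes were higher in WT villus. Of 15 listed regulators 10 were in the tables, with 50% called higher in crypt and 30% higher in villus. Myc was higher in crypt, at -1.06 ± 0.18, as were the GABP subunits Gabpb2 (-0.44 ± 0.08) and Gabpb1 (-0.36 ± 0.10), and Max (0.77 ± 0.06), Atf4 (0.59 ± 0.20) and Ppargc1a (0.30 ± 0.12) were higher in villus in the authors' deposited table. Yy1 (-0.26 ± 0.07) and Ppargc1b (-0.29 ± 0.09) were also called higher in crypt there.

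The Mrp genes were set beside neighbouring groups. In villus against crypt, the median of the Mrp genes lay between those of the cytosolic ribosomal proteins and the oxidative phosphorylation subunits. The authors' deposited table called 65 of 74 cytosolic ribosomal protein genes higher in crypt and 0 higher in villus (66 at an unadjusted p under 0.05 in DESeq2, in either direction), with a median of -0.78. Of 75 nuclear genes for oxidative phosphorylation 21 were called higher in crypt and 3 higher in villus in the authors' deposited table, with a median of -0.12. These shares, 28.0% and 4.0%, were close to the 28.6% and 4.76% of the Mrp genes. Among all genes the shares were 18.8% and 18.6%. Between WT and labelled-DKO villus the medians of the groups were -0.65 for the cytosolic ribosomal proteins, -0.17 for the Mrp genes and -0.03 for oxidative phosphorylation. The authors' deposited table listed 59 of 74 cytosolic ribosomal protein genes and 12 of 75 oxidative phosphorylation genes as higher in labelled-DKO villus, and 1 and 10 as higher in WT villus. Here 29.5% of all genes were higher in labelled-DKO villus and 22.4% higher in WT villus. The order of the medians is a description, and the difference between the groups was not tested.

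**Figure D4:**
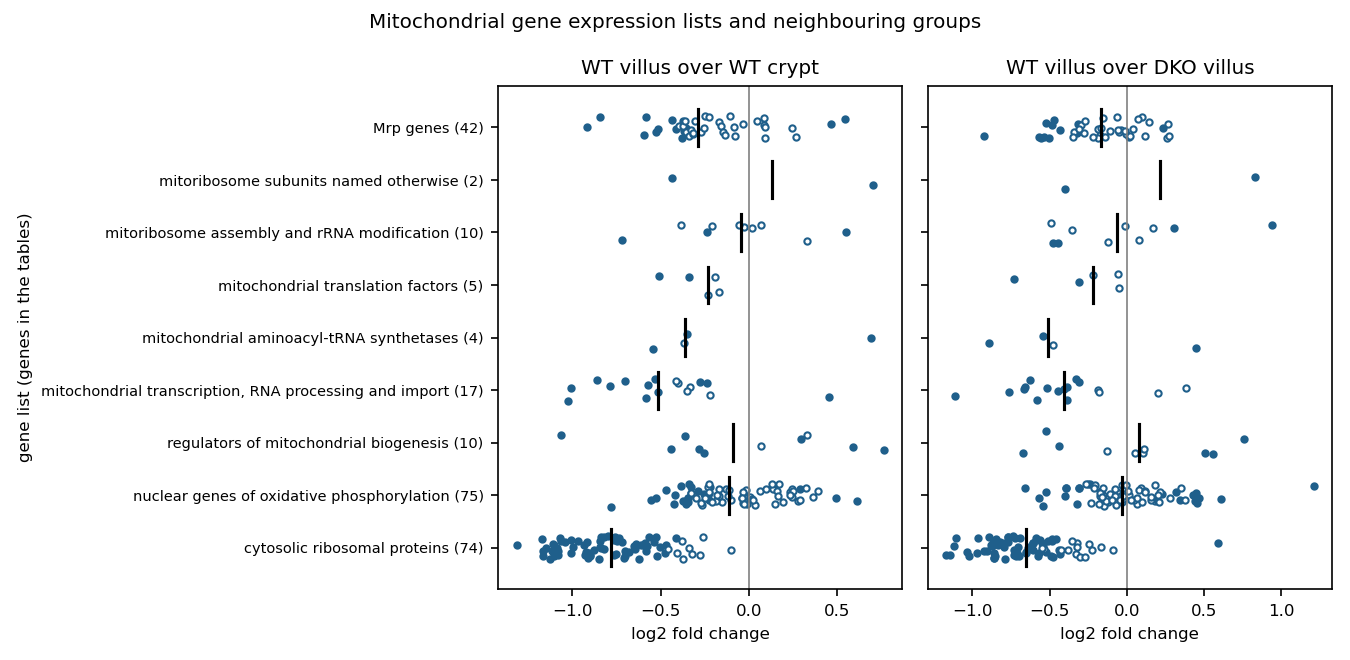
Log2 fold change (x axes) of the Mrp genes, 6 lists of mitochondrial gene expression and 2 neighbouring groups (y axis, with the number of genes in the tables), for WT villus over WT crypt (left) and WT villus over labelled-DKO villus (right), from the authors' deposited tables. Each point is a gene, filled where the adjusted p was under 0.05, with random vertical spread, and black bars are medians, which stand at -0.29 for the Mrp genes, -0.12 for oxidative phosphorylation and -0.78 for cytosolic ribosomal proteins on the left.

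The Mrp genes were short and often shared a promoter region with a gene on the other strand. Their median length from the counting windows was 5055 bp, with a range of 1429 to 18326 bp, against 12056 bp for the genes of the tables. A start on the other strand within 1000 bp upstream was found for 16 of the 42 genes (38.1%), against 17.4% of the 6394 genes of the tables that could be matched to windows. The neighbours included Twnk, the mitochondrial DNA helicase, 116 bp from Mrpl43, and Ndufb5, a complex I subunit, 308 bp from Mrpl47. Sars2, the mitochondrial seryl-tRNA synthetase, lay 147 bp from Mrps12. Others were Ska3, Hira, Gga3, Ncapd2 and Ppp1r10. How many of the 16 neighbours serve mitochondria was not counted, and neither was that share among neighbours of all genes. Pol II on either gene of such a pair cannot be told apart by ChIP-seq where the windows meet. Windows of 18 of the 42 genes (42.9%) overlapped those of another gene, against 41.2% of the 6394 genes. Crypt-high genes with such an overlap were Mrpl10, Mrpl24, Mrpl47, Mrpl57, Mrps18b and Mrps25. Mrps7, Mrpl38 and Mrpl40, called higher in labelled-DKO villus only, had one too. Of the 16 genes with such a neighbour 4 were called higher in crypt, with a median of -0.33, and of the 26 without one 8 were, with a median of -0.26. The share of all genes called higher in crypt was 18.8%. For WT over labelled-DKO villus the medians were -0.29 with and -0.08 without such a neighbour, with 4 and 7 genes called higher in labelled-DKO villus, and the difference between the classes was not tested. In that direction 29.5% of all genes were called.

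For 8 of the 16 pairs the neighbour was in the tables as well. Mrpl47 and Ndufb5 were both called higher in crypt in the authors' deposited table, at -0.51 ± 0.10 and -0.34 ± 0.11. Mrpl18 was not called, at -0.15 ± 0.12, while its neighbour Tcp1, a subunit of the cytosolic chaperonin 238 bp away, was called at -0.74 ± 0.12 (DESeq2 adjusted p 3.15e-09) in the authors' deposited table. Mrpl2, a core protein of the large subunit, was not called, at -0.33 ± 0.25, and Klc4, a kinesin light chain 141 bp away, was called higher in villus at 0.52 ± 0.14 (7.37e-04) in DESeq2 results of the authors' deposited table. The same pair stood at -0.19 ± 0.25 for Mrpl2 and 1.23 ± 0.14 for Klc4 between WT and labelled-DKO villus in the authors' deposited table.

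**Figure D5:**
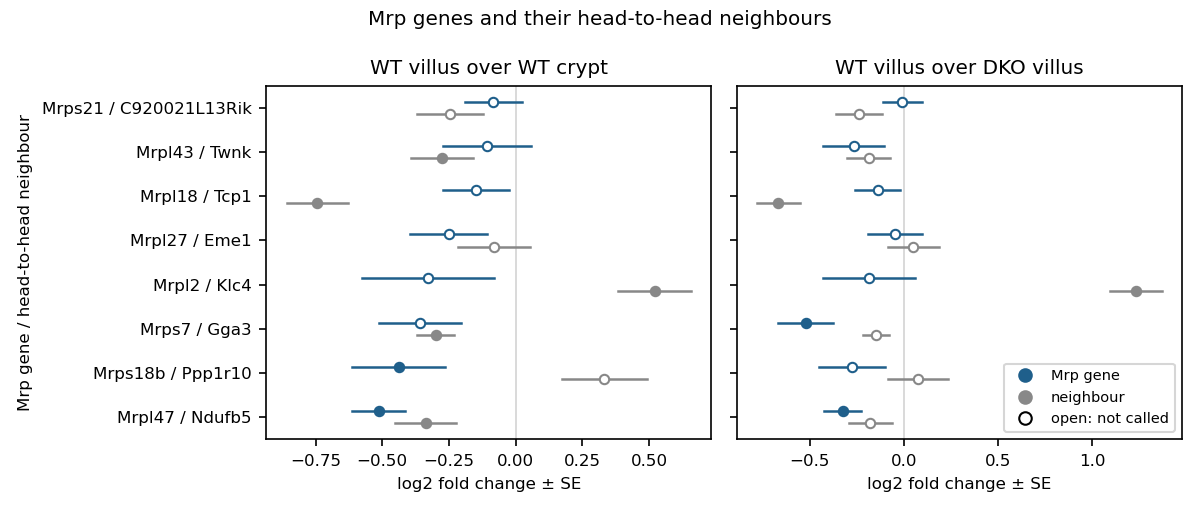
Log2 fold change ± standard error (x axes) of 8 Mrp genes (blue) and their head-to-head neighbours (grey) for WT villus over WT crypt (left) and WT villus over labelled-DKO villus (right), from the authors' deposited tables, with filled points for an adjusted p under 0.05. Mrpl47 and Ndufb5 lie on the same side of 0, at -0.51 and -0.34 on the left, while Klc4 lies at 0.52 and its partner Mrpl2 at -0.33.

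The sequence classes were set beside the values. The 22 Mrp genes with an ETS core in the promoter had a median villus over crypt log2 fold change of -0.28 and the 16 without one -0.26, with 7 and 5 genes called higher in crypt in the authors' deposited table. Calls higher in crypt made up 18.8% of all genes. Of the 5 genes with an NRF1 core 4 were called higher in crypt (Mrpl10, Mrpl17, Mrpl33 and Mrps18b), and of the 33 without one 8 were, with medians of -0.44 and -0.22. None of the 4 genes with a YY1 core was called higher in crypt in the authors' deposited table, although 1 of them, Mrps7, was called higher in labelled-DKO villus. Mrpl16 held none of the ETS, NRF1 and YY1 cores and had a TATA box that began 68 bases before the start. Mrpl28 had its ETS matches after the start, at positions 8 and 14, outside the stretch printed above, and so had Mrps14, at position 7. These counts are small and no test was made of them.

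The positions of the windows bear on which signal a gene receives. In the authors' coordinates (mm9 per the submitters' processing notes) the promoter window of Mrps14 lay on chromosome 1 from 162125246 to 162125647, that of Mrps2 on chromosome 2 from 28323486 to 28323887, that of Mrpl16 on chromosome 19 from 11844805 to 11845206, that of Mrpl28 on chromosome 17 from 26260348 to 26260749, and that of Mrps31 on chromosome 8 from 23521712 to 23522113. These windows covered the annotated start, from 100 bp upstream to about 300 bp inside the gene. Gene body windows began 350 bp inside the gene for all 19858 transcripts on the plus strand that had both windows, but ended 350 bp upstream of the start for all 21190 on the minus strand. A minus-strand gene body window therefore held the promoter as well. Which window fed the deposited comparisons is not given in the sources used here. Of the Mrp genes, 24 lay on the plus strand, with a median villus over crypt log2 fold change of -0.31 and 8 genes called higher in crypt, and 18 lay on the minus strand, with a median of -0.16 and 4 genes called, in the authors' deposited table. Genes called higher in crypt were 18.8% of all genes.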

How the data were processed

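Pol II ChIP-seq libraries of duodenal epithelium were processed by the submitters. Per the submitters' processing notes, Bowtie2 2.2.6, SAMtools 0.1.19, Picard, featureCounts and DESeq2 1.36.0 were used with genome build mm9. The file headers of the window tables name featureCounts 2.0.3, read pairs, ignored duplicates and a mapping quality of at least 30. Their 18 columns of counts carry no names, matched no sample and were not used, so the planned edgeR tests were not run.

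Per gene (6429 in all), the deposited comparison tables hold a mean signal (size-factor-normalised counts) and a log2 fold change with its standard error. The authors also deposited the Wald score and its p-value, raw and adjusted. The deposited score equalled the log2 fold change over its standard error to within 1.78e-07. Neither depth per library, nor an interval on counts, can be had from these tables. DKO villus against crypt, group levels and window positions were computed here with Python 3.11.15, NumPy 2.4.6, SciPy 1.17.1 and pandas 2.3.3. The test of DKO villus against crypt was run on simulated counts with changes in DKO villus alone. Those changes were larger than that of any Mrp gene in this comparison, and smaller ones were not simulated. Symbols came from RefSeq (GRCm38.p6), which matched 42877 of 44308 promoter windows.

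Members and lists were chosen with earlier results of these data known. Named with values were up to 12 called genes per direction, the 5 with the highest mean signal, up to 3 called genes per direction and list, and Hnf4a and Hnf4g. Other genes were named after their values were seen. Alternatives were other thresholds, centring, and leaving out genes by signal, overlap or neighbour.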

Additional observations from a re-analysis of the deposited data

How the results depend on the processing

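In villus against crypt, 12 Mrp genes were called higher in crypt and 2 higher in villus. With an absolute log2 fold change of at least 0.5 these counts were 6 and 1 (6.10% and 12.1% of all genes), with an adjusted p under 0.01 they were 8 and 1 (12.5% and 14.6%), and after centring 10 and 2 (14.8% and 21.1%). Keeping a mean signal of at least 100 (15 genes), or windows overlapping no other gene (24 genes), left 6 higher in crypt and 2 higher in villus each time. In WT against labelled-DKO villus, the counts were 11 higher in labelled-DKO villus and 1 in WT villus. With an adjusted p under 0.01 they were 7 and 0 (22.1% and 18.8% of all genes), with a log2 fold change of at least 0.5 they were 6 and 0 (13.7% and 15.5%), and after centring 7 and 3 (22.1% and 26.6%), where Mrpl28 and Mrps31 joined Mrpl16. A mean signal of at least 100 left 4 higher in labelled-DKO villus, no overlap left 4, and no divergent neighbour left 7 of 26 genes. Each of these settings left 1 higher in WT villus. Settings on signal, overlap and neighbour keep fewer genes, and shares of all genes under the same filters were not computed. Without filters, 18.8% of all genes were called higher in crypt and 18.6% higher in villus. For WT against labelled-DKO villus the unfiltered shares were 29.5% for labelled-DKO villus and 22.4% for WT villus. For labelled-DKO villus against crypt, the rebuilt standard error raised the count higher in labelled-DKO villus from 0 to 1, and the share of all genes from 6.41% to 15.6%. Medians kept their direction, but those that a setting could change moved by up to several times. The median of villus over crypt ranged from -0.29 to -0.14, that of WT over labelled-DKO villus from -0.17 to -0.06, both nearest 0 for a mean signal of at least 100, and that of labelled-DKO villus over crypt from -0.06 to -0.02. Of the values of single called genes 53 kept their call and 29 lost it under a stricter threshold or centring.

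No paired analysis was possible because no count column carries a sample name or number. Leaving out replicates, DESeq2 against other tools and tests of window counts were not run, since the count columns could not be matched to samples. Standard errors of the Mrp genes reached 0.26 in the deposited tables and 0.37 for labelled-DKO villus against crypt.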
